A study of Mus musculus with 6 samples.

Results

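The genes described here encode Rab GTPases, SNAREs and the proteins that act with them in granule exocytosis. They were taken by name from a table of 17909 genes, as all symbols beginning with Rab, Vamp, Stx, Stxbp, Snap, Syt or Sytl and a number, or with Unc13 or Vti1. This gave 128 genes, of which 59 are Rab GTPases and 8 carry a Rab name but encode effectors or regulators such as Rab11fip1. The values are FPKM, a level scaled to transcript length and to the mapped fragments of the library, from bulk RNA-seq of C57BL/6xFVB mouse embryos. The cells of all 6 libraries were sorted with the help of Csf1r-iCre fate mapping, in which a Cre recombinase expressed from Csf1r sequences leaves a heritable mark. The labels place the marked cells in the descent of early erythro-myeloid progenitors (EMPs). The libraries were liver EMPs at E11.5 (LiB7_neg in the labels), macrophage-labelled liver cells at E11.5, liver mast cell progenitors (MCPs) at E11.5 (LiB7_pos), MCPs of the limb at E11.5 and again at E14.5, and cells of E16.5 skin that the title calls MCPs and the description mast cells. Each group held 1 library, so no replicate, standard error or test existed, and a fold value describes the libraries compared. How many embryos were pooled and which further sort markers were used were not given in the sources used here.

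Mast cells store histamine, proteases and proteoglycans in secretory granules, a kind of lysosome-related organelle, and empty them on stimulation. Rab GTPases, when bound to GTP, recruit the motors and tethers that bring a granule to the plasma membrane. The fusion itself is driven by SNARE proteins, of which an R-SNARE on the granule (the VAMP family) pairs with a syntaxin and a SNAP-25 family protein on the target membrane. SM proteins such as the product of Stxbp2 clasp the syntaxin, Unc13 proteins prime granules, and synaptotagmins sense calcium.

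Library totals, as far as they could be inferred from the spacing of low values, were 8600000 to 12200000 fragments. At these totals 3 fragments on a 2 kb transcript, the most that a value of 0 allows, gave an FPKM of 0.123 to 0.174, for counting error only. Markers of mast cells summed to 610 FPKM in EMPs, 524 in the macrophage-labelled library, 715 in liver MCPs, 1576 in the younger and 4828 in the older limb library, and 17719 in skin. These sums lean on few genes. Srgn alone read 411 in EMPs and 227 in liver MCPs, and Cpa3 13494 in skin. In the same order, 7, 6, 12, 14, 20 and 19 of the 22 markers were at or above 1 FPKM. Their medians were 0, 0.32, 1.57, 3.945, 36.5 and 45.0 FPKM. In the macrophage-labelled library, markers of eosinophils summed to 10026 FPKM and of neutrophils to 8344, against 2758 for macrophage markers, so that label was only partly borne out. Of the macrophage sum, Lyz2 alone made 2633. Of the 14 macrophage markers, 11 were at or above 1 FPKM, among them Csf1r (34.1) and Adgre1 (18.4). C1qa (0.17), Timd4 (0.65) and Cd163 (0.02) were not. The EMP library, labelled as progenitors, carried 10480 FPKM of neutrophil markers. Most of this was Mpo (8174), Elane (1166) and Prtn3 (383). S100a9 read 284, Ltf 1.38, Mmp8 0.43 and Mmp9 0.13, and Ly6g was listed at 0. All 10 progenitor markers were at or above 1 FPKM in this library, with a sum of 373.5. Connective tissue markers, at most 1.01 FPKM in sum at E11.5, read 67.9 in limb MCPs at E14.5 (7 of 7 at or above 1 FPKM) and 12.3 in skin (3 of 7). The skin library stood apart. It had 5675 genes at or above 1 FPKM, against 8270 to 8754 elsewhere, and an FPKM sum of 84036 against 140044 to 169289. Values were therefore also divided by median-of-ratios size factors, which were 1.05 to 1.30 in the first 5 libraries and 0.44 in skin, so that scaled skin values are more than doubled. Values are given in the order EMP, macrophage-labelled, liver MCP, limb at E11.5, limb at E14.5, skin, as deposited unless called scaled. In pooled RNA, fewer cells of a type and less RNA per cell cannot be told apart.

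Most of the 128 genes were not abundant. In at least 1 library 83 reached 1 FPKM and 37 reached 10, while 45 stayed below 1 throughout. The set covered 0.605%, 0.641%, 0.594%, 0.661% and 0.695% of the FPKM sum in the first 5 libraries and 1.11% in skin. Its own summed FPKM was 935 in skin and 910 to 1038 in the first 5, so the higher share goes with the lower skin total. In every library 13 genes were at or above 10 FPKM. These were the ER and Golgi Rabs Rab1a, Rab2a and Rab6a, the endosomal Rab5b, Rab5c, Rab10 and Rab21, the late endosomal Rab7, the secretory Rab44, and the SNAREs Vamp3, Snap23, Snap29 and Stx4a. Rab7, which directs late endosomes to lysosomes, had the highest level of all members in each library, at 140, 140, 136, 117, 165.3 and 194 FPKM. By contrast the neuronal members were near 0. Syt1, a calcium sensor of synapses, was at most 0.07 FPKM, Snap25 at most 0.17 and Stx1a at most 0.37.

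**Figure D1:**
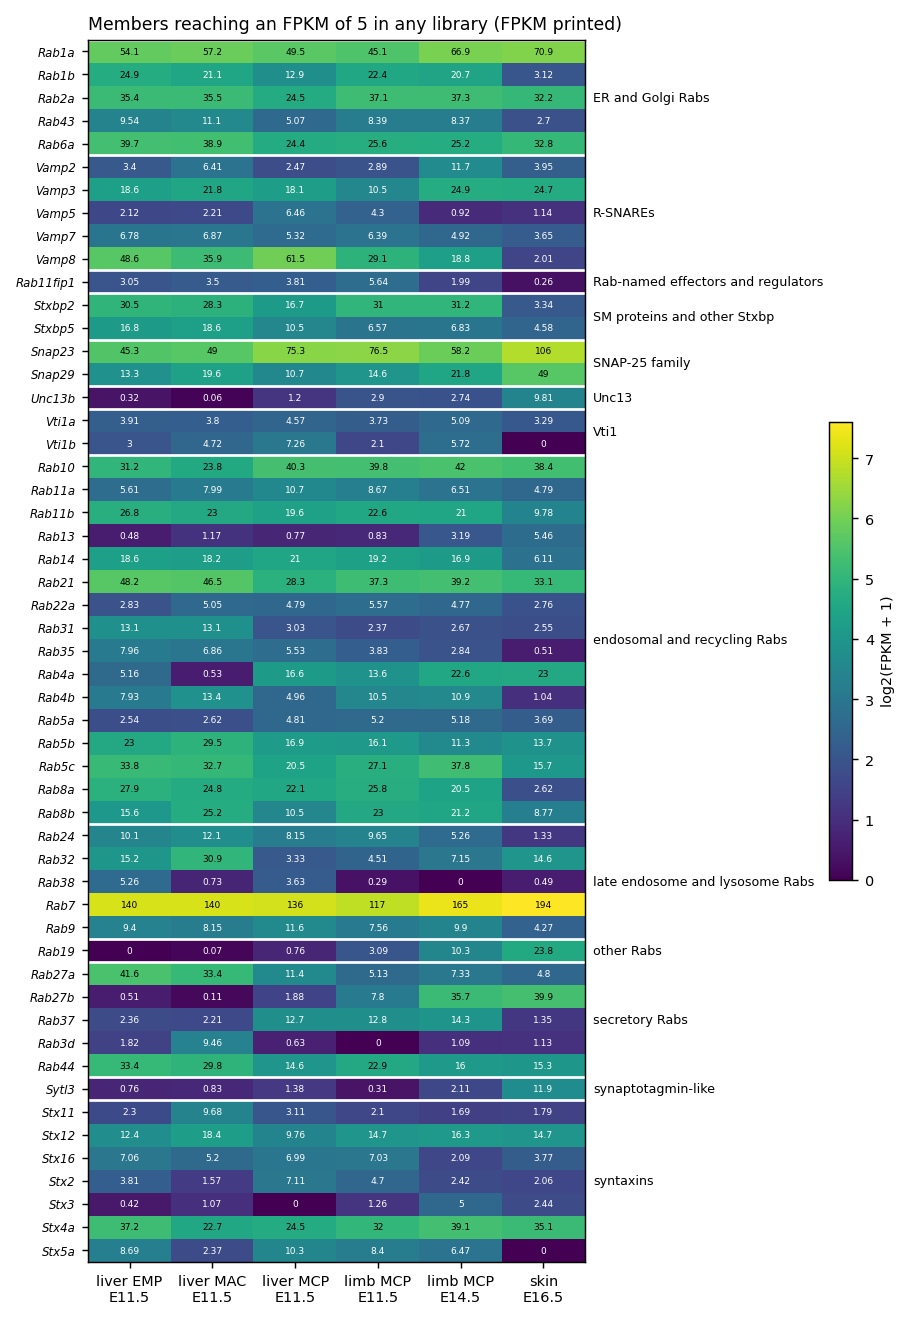
FPKM (printed) of the members shown, each of which reached 5 FPKM in some library, by role (rows) and library (columns), with colour showing log2(FPKM + 1). Rab7 is high in every column, while Rab27b and Rab19 are bright in the limb at E14.5 and in skin, and Rab27a is bright in EMPs and the macrophage-labelled library.

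Among the secretory Rabs, the pair Rab27a and Rab27b had opposite patterns. Both are GTPases of lysosome-related organelles, and both are known to act in mast cell degranulation. Rab27a read 41.6, 33.4, 11.45, 5.13, 7.33 and 4.80 FPKM, high in EMPs and the macrophage-labelled library and low in the limb and skin. Rab27b read 0.51, 0.11, 1.88, 7.80, 35.7 and 39.9 FPKM. It was highest in the limb at E14.5 and in skin. Of the summed FPKM of the pair, Rab27b therefore took 1.21%, 0.328%, 14.1%, 60.3%, 83% and 89.3%. A share within a library does not depend on the scaling. The sum of the pair was 42.1 FPKM in EMPs, 33.5 in the macrophage-labelled library, 13.3 and 12.9 in liver and limb MCPs at E11.5, 43.0 in the limb at E14.5 and 44.7 in skin. Neutrophil markers, whose cells also use Rab27a, summed to 10480, 8344, 1057, 490, 2.38 and 8.30 FPKM, and their part in the Rab27a pattern was not tested. On GRCm38, Rab27a spans 73044854 to 73097629 of chromosome 9.

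Rab37, a secretory Rab known from mast cells, read 2.36, 2.21, 12.7, 12.8, 14.3 and 1.35 FPKM. It was thus high in the liver and limb MCP libraries and low in EMPs, the macrophage-labelled library and skin, also when scaled (3.05 in skin, 9.96 to 11.7 in liver and limb MCPs). Rab44, a large Rab with calcium-binding motifs that is expressed in mast cells, read 33.4, 29.8, 14.6, 22.9, 16.01 and 15.3 FPKM. In the mast cell lineage it stayed between 14.6 and 22.9 FPKM as deposited, and scaling put the skin value at the top (34.5). Rab3d, a Rab of regulated secretory granules, read 1.82, 9.46, 0.63, 0, 1.09 and 1.13 FPKM, with its peak in the macrophage-labelled library. Rab3a, its relative in neurons and endocrine cells, stayed at or below 1.97 FPKM, as did Rab3b, Rab3c and Rab26. On GRCm38, Rab37 lies on chromosome 11 at 115091431 to 115162236.

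**Figure D2:**
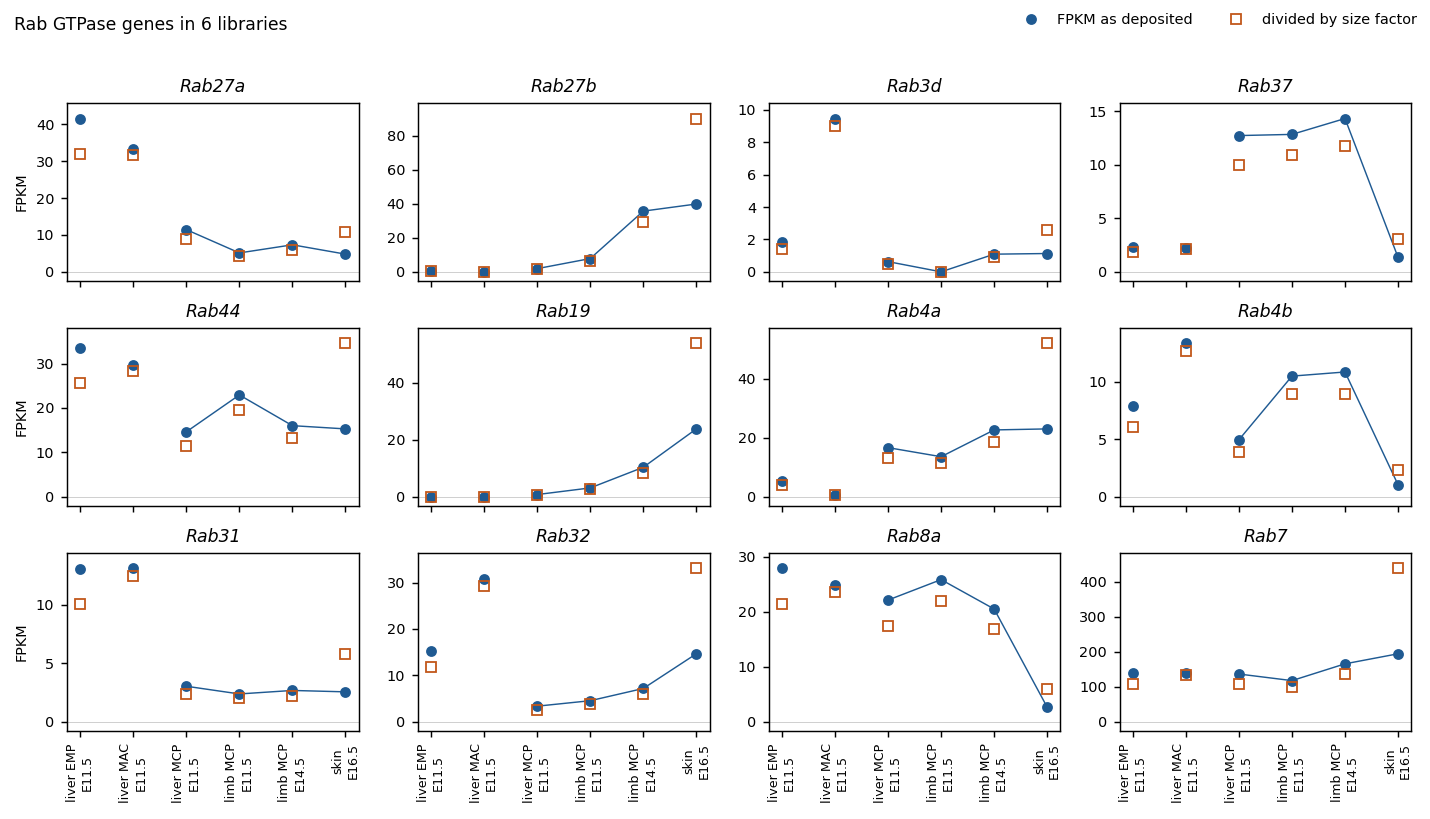
FPKM of 12 Rab genes (panels) in the 6 libraries (horizontal), as deposited (filled circles, joined over the 4 mast cell lineage libraries) and divided by the size factor of the library (open squares). Rab27b and Rab19 climb over the mast cell lineage libraries while Rab27a is highest at the left, and scaled skin values lie above the deposited ones.

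Rab19, a Rab that has been placed at the Golgi, was a gene that was low in the liver and high in the late libraries. It was listed at 0 in EMPs and read 0.07, 0.76, 3.09, 10.3 and 23.8 FPKM in the others, so that each step of the mast cell lineage was higher than the one before. Snap29, a SNAP-25 relative of endosomal and autophagosomal fusion, read 13.3, 19.6, 10.7, 14.6, 21.8 and 49.0 FPKM, higher at each of the same steps. Vamp8, the R-SNARE of endosomes and of mast cell granules, went the other way at 48.6, 35.9, 61.5, 29.1, 18.8 and 2.01 FPKM. The sequences before the starts of these 3 genes, out of the 6 members ordered along the lineage as given further on, are shown as examples from both directions. They are from RefSeq on GRCm38.p6, given 5′ to 3′ on the strand of the gene, and end before the first base that RefSeq or GENCODE M21 assigns to the gene.
Rab19 (chr6:39381103-39381174, + strand): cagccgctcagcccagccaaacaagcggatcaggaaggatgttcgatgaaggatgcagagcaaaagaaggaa
Snap29 (chr16:17405750-17405985, + strand): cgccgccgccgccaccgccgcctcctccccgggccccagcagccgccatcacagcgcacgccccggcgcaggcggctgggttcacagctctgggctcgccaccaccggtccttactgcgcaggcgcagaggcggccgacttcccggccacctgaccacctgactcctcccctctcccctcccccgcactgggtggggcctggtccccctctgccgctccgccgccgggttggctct
Vamp8 (chr6:72390704-72390917, − strand): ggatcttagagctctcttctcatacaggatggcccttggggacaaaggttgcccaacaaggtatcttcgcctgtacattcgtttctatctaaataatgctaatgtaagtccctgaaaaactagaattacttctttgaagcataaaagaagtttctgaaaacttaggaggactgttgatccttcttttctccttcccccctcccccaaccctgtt
Over the 250 bases before the RefSeq start, GC content was 55.2% for Rab19, 76.8% for Snap29 and 43.6% for Vamp8, beside a median of 52% over 27025 promoters and 61% over the 102 members with an entry there. Of these 250 bases, 72 lie before the GENCODE start for Rab19, 236 for Snap29 and 214 for Vamp8. The Snap29 window held 26 CG dinucleotides and the Vamp8 window 3. Of the other ordered members, the Rab35 window had 78.8% GC and 39 CG dinucleotides and the Stx5a window 51.6% and 9. Rab27b, also ordered, had no window among those used and was not searched. Searched on both strands, the GATA core GATAA was in none of these 5 windows, nor were the E-boxes CACGTG and CATGTG, so no base is in capitals. These letters were in 23%, 6.05% and 12.2% of all promoter windows searched and in 16.7%, 10.8% and 4.90% of those of members.

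From liver MCPs over both limb ages to skin, 3 members were higher at every step with at least 4-fold between the ends on the log2(FPKM + 1) scale. These were Rab27b, Rab19 and Snap29. They make 2.34% of the members, and 0.547% of all genes met the rule. Lower at every step were Vamp8, Rab35 and Stx5a, also 2.34% of the members, with 3.05% over all genes, so a downward order was no more frequent here than in the table as a whole. Rab35, a recycling Rab, read 7.96, 6.86, 5.53, 3.83, 2.84 and 0.51 FPKM. Stx5a, the syntaxin of ER to Golgi transport, read 8.69, 2.37, 10.3, 8.40 and 6.47 FPKM and was listed at 0 in skin, as was Vti1b. A value of 0 for a gene that every cell uses may be a failed estimate, so neither is read as absent. The 4-fold difference of Stx5a between the ends rests on that 0. After size factor scaling 8 members were ordered upward, with Vamp4, Rab32, Rab13, Sytl2 and Stx3 added, beside 1.73% of all genes, and 2 downward (Vamp8 and Stx5a), beside 1.18%. Without the skin library, over 2 steps, the upward members were Rab27b, Rab19, Sytl2 and Stx3 (3.12%, all genes 1.08%) and Rab38 alone was ordered downward (0.781%, all genes 0.776%). Snap29, Vamp8, Rab35 and Stx5a thus reached 4-fold only with skin, whereas Rab27b and Rab19 did so without it.

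Among endosomal and recycling Rabs, Rab4a and Rab4b differed between libraries. Both steer fast recycling from early endosomes. Rab4a read 5.16, 0.53, 16.6, 13.6, 22.6 and 23.0 FPKM, high in all 4 mast cell lineage libraries and lowest in the macrophage-labelled one. Rab4b read 7.93, 13.4, 4.96, 10.5, 10.9 and 1.04 FPKM. Rab4a made 3.81% of the pair in the macrophage-labelled library, 77% in liver MCPs and 95.7% in skin. Rab31, which acts between the trans-Golgi network and endosomes, read 13.1, 13.1, 3.03, 2.37, 2.67 and 2.55 FPKM, and so was high in the 2 liver libraries that are not MCPs. Rab32, a Rab of lysosome-related organelles that helps cargo reach melanosomes, read 15.2, 30.9, 3.33, 4.51, 7.15 and 14.6 FPKM. Its relative Rab38 read 5.26, 0.73, 3.63, 0.29, 0 and 0.49.

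**Figure D3:**
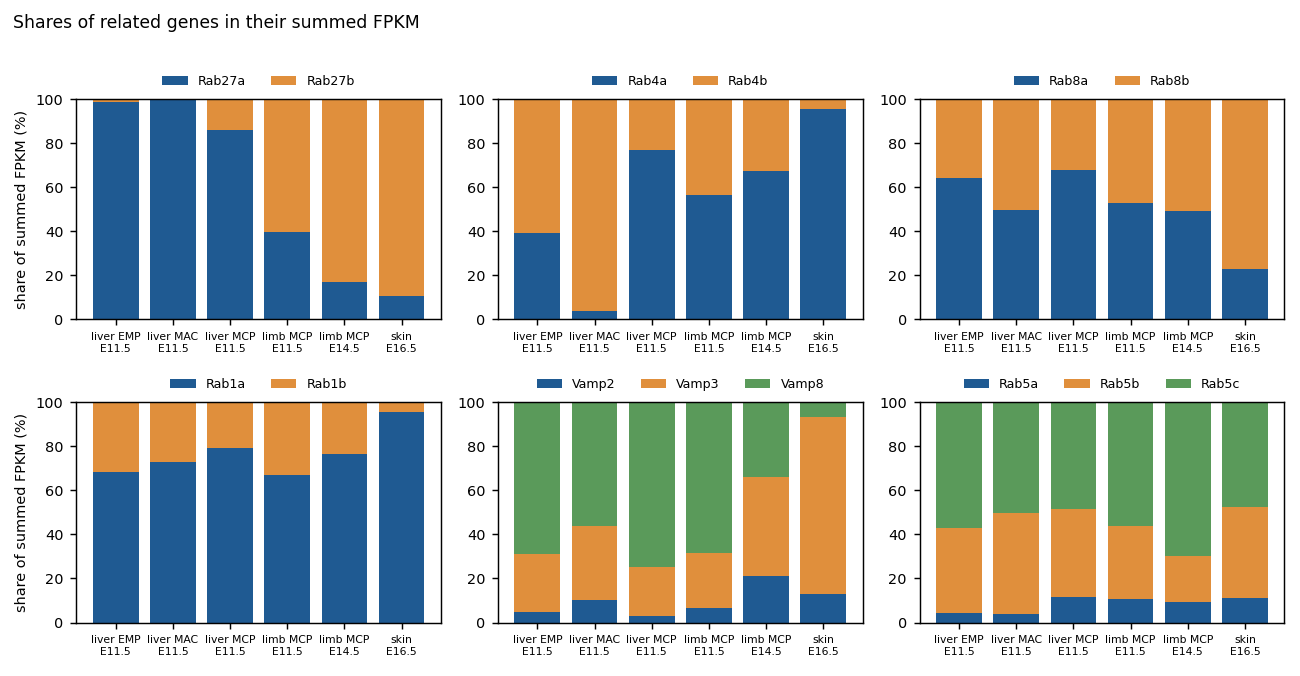
Share of each gene (colours) in the summed FPKM of its group of related genes (vertical, percent) in the 6 libraries (horizontal). Rab27b goes from 1.21% of its pair in EMPs to 89.3% in skin, and Vamp3 takes 80.6% of the 3 VAMP genes in skin.

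The Rab5 genes of early endosomes were led by Rab5c, at 33.8, 32.7, 20.5, 27.1, 37.8 and 15.7 FPKM, and Rab5b, at 23.0, 29.5, 16.9, 16.1, 11.3 and 13.7. Rab5a was lower, at 2.54 to 5.2 FPKM. Rab11b, of the recycling endosome, read 26.8, 23.0, 19.6, 22.6, 21.04 and 9.78 FPKM and made 64.8% to 82.7% of the pair with Rab11a. Rab10, which acts in polarised transport to the cell surface, read 31.2, 23.8, 40.3, 39.8, 42.0 and 38.4 FPKM, and so was lowest in the macrophage-labelled library. Rab21, of early endosomes and integrin traffic, was highest in EMPs at 48.2 FPKM and lowest in liver MCPs at 28.3 as deposited. When scaled, it was highest in skin. Rab24, linked to autophagy, read 10.1, 12.1, 8.15, 9.65, 5.26 and 1.33 FPKM.

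Other pairs differed mainly in skin. Rab8a and Rab8b carry vesicles to the plasma membrane, and Rab8a read 27.9, 24.8, 22.1, 25.8, 20.5 and 2.62 FPKM. Rab8a made 49.2% to 67.9% of its pair in the first 5 libraries and 23% in skin. Rab1b, an ER to Golgi Rab, read 3.12 FPKM in skin and 12.9 to 24.9 elsewhere, while Rab1a read 70.9 in skin and 45.1 to 66.9 elsewhere. Near-identical relatives share reads, so how the authors' quantification split fragments between Rab1a and Rab1b is uncertain.

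The make-up of the R-SNAREs differed along the lineage. Vamp3, the cellubrevin of recycling endosomes, read 18.6, 21.8, 18.1, 10.5, 24.9 and 24.7 FPKM. Vamp2, synaptobrevin, read 3.40, 6.41, 2.47, 2.89, 11.7 and 3.95. Vamp8 made 75% of the summed FPKM of these 3 genes in the liver MCP library, and 68.5% and 33.9% in the younger and the older limb. It made 6.56% in skin, where Vamp3 made 80.6%. Vamp7, the R-SNARE of lysosomes, stayed between 3.65 and 6.87 FPKM. Vamp4, of the trans-Golgi network, read 1.14, 2.56, 1.02, 1.27, 2.69 and 4.88 FPKM. All 7 VAMP genes reached 1 FPKM in at least 1 library.

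The target SNAREs were led by Snap23, the SNAP-25 relative used by mast cells, at 45.3, 49.0, 75.3, 76.5, 58.2 and 105.9 FPKM. It exceeded every syntaxin in each library. Stx4a, a syntaxin of the plasma membrane, read 37.2, 22.7, 24.5, 32.04, 39.1 and 35.1 FPKM and was the highest syntaxin throughout. Stx3, a syntaxin linked to granule fusion, read 0.42, 1.07, 0, 1.26, 5.0 and 2.44 FPKM, with its peak in the limb at E14.5 as deposited and in skin when scaled (5.52 against 4.11). Stx11, used by cytotoxic lymphocytes and expressed in myeloid cells, peaked in the macrophage-labelled library at 9.68 FPKM, against 1.69 to 3.11 elsewhere. Stx7 of late endosomes was listed at 0 in limb MCPs at E11.5 and in skin, and read 1.55 to 4.75 in the others. Whether its values of 0 are failed estimates was not tested.

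**Figure D4:**
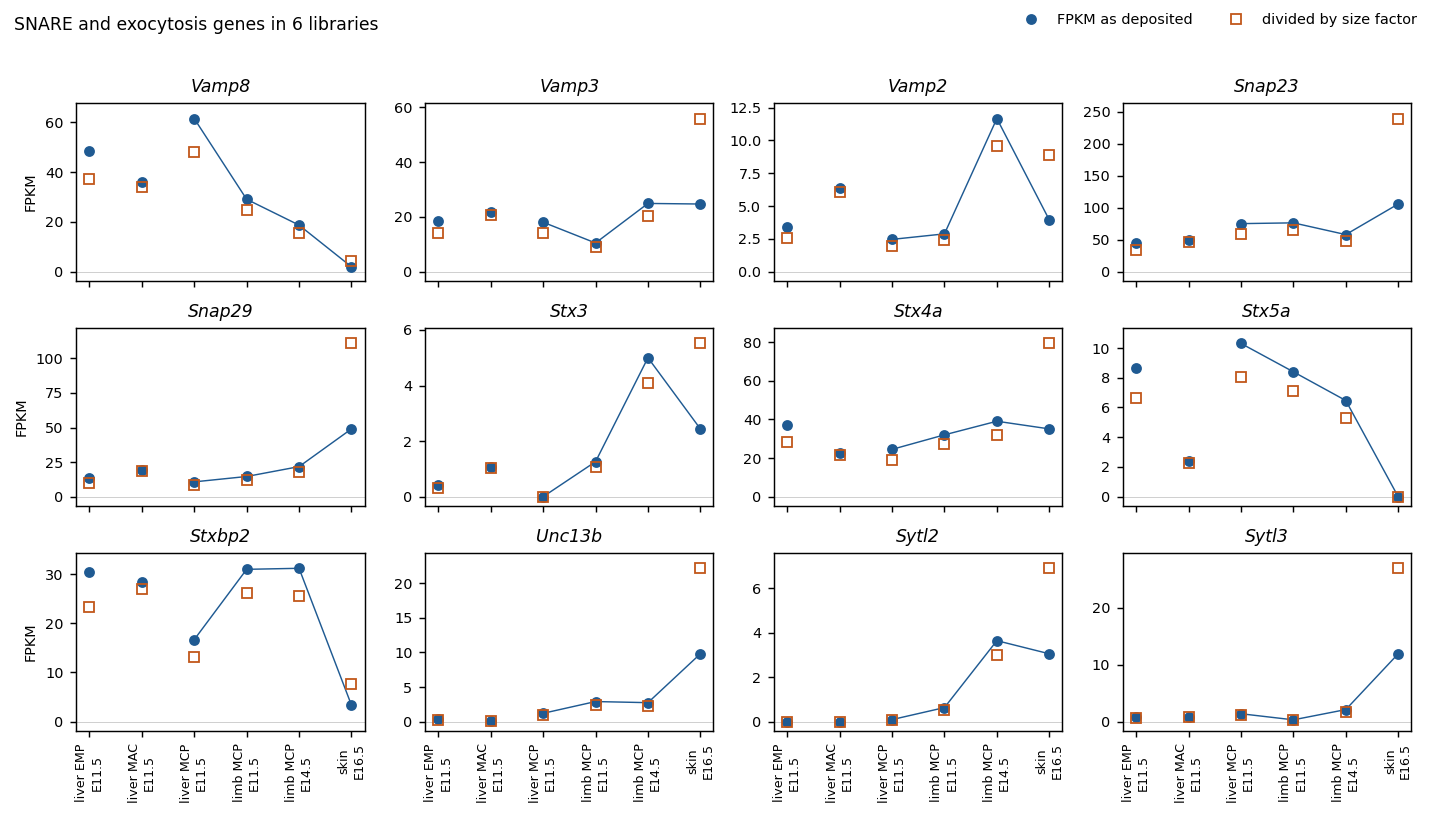
FPKM of 12 SNARE and exocytosis genes (panels) in the 6 libraries (horizontal), as deposited (filled circles, joined over the 4 mast cell lineage libraries) and divided by the size factor of the library (open squares). Vamp8 and Stxbp2 are low in skin on both scales, while Unc13b and Sytl3 stand highest there.

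The SM protein gene Stxbp2, whose product binds syntaxins in mast cells and cytotoxic lymphocytes, read 30.5, 28.3, 16.7, 31.0, 31.2 and 3.34 FPKM. It was the highest of the SM and other Stxbp genes in the first 5 libraries. In skin Stxbp5, which encodes tomosyn, an inhibitor of SNARE assembly, stood above it at 4.58 FPKM. Stxbp3 stayed between 1.22 and 4.94 FPKM. Of the Unc13 genes, Unc13d, the priming factor of cytotoxic lymphocytes and mast cells, was listed at 0 in every library but liver MCPs, where it read 0.48 FPKM. Unc13b, its relative in synapses, read 0.32, 0.06, 1.20, 2.90, 2.74 and 9.81 FPKM. It was highest in skin, where it made 97.8% of the summed FPKM of the Unc13 genes. Whether the values of Unc13d are failed estimates was not tested.

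Synaptotagmins were scarce. Of 16 genes, 14 stayed below 1 FPKM in all libraries, and the exceptions were Syt14 (at most 1.74 FPKM) and Syt11 (at most 1.03), both highest in limb MCPs at E11.5. Syt2 and Syt9, which have been studied in mast cell lines, did not exceed 0.09 FPKM. Among the synaptotagmin-like genes, whose products bind Rab27 proteins, Sytl3 read 0.76, 0.83, 1.38, 0.31, 2.11 and 11.9 FPKM. Sytl2 was listed at 0 in EMPs and the macrophage-labelled library and read 0.09, 0.63, 3.64 and 3.05 in the mast cell lineage. Both were therefore highest in the late libraries that also had high Rab27b. Sytl1, Sytl4 and Sytl5 did not exceed 1.23 FPKM.

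The 6 comparisons below used the difference of log2(FPKM + 1). A gene was called at a difference of 1, which is 2-fold, provided that one of its 2 values reached 10 FPKM. The fold values printed for single genes are plain ratios of FPKM, without the added 1, and are larger than the fold used for calls. A gene whose printed fold lies just above a threshold may therefore not be called at it. Only members abundant enough in the higher library could be called, so the 27 to 33 members that passed in a comparison do not stand for all 128.

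**Figure D5:**
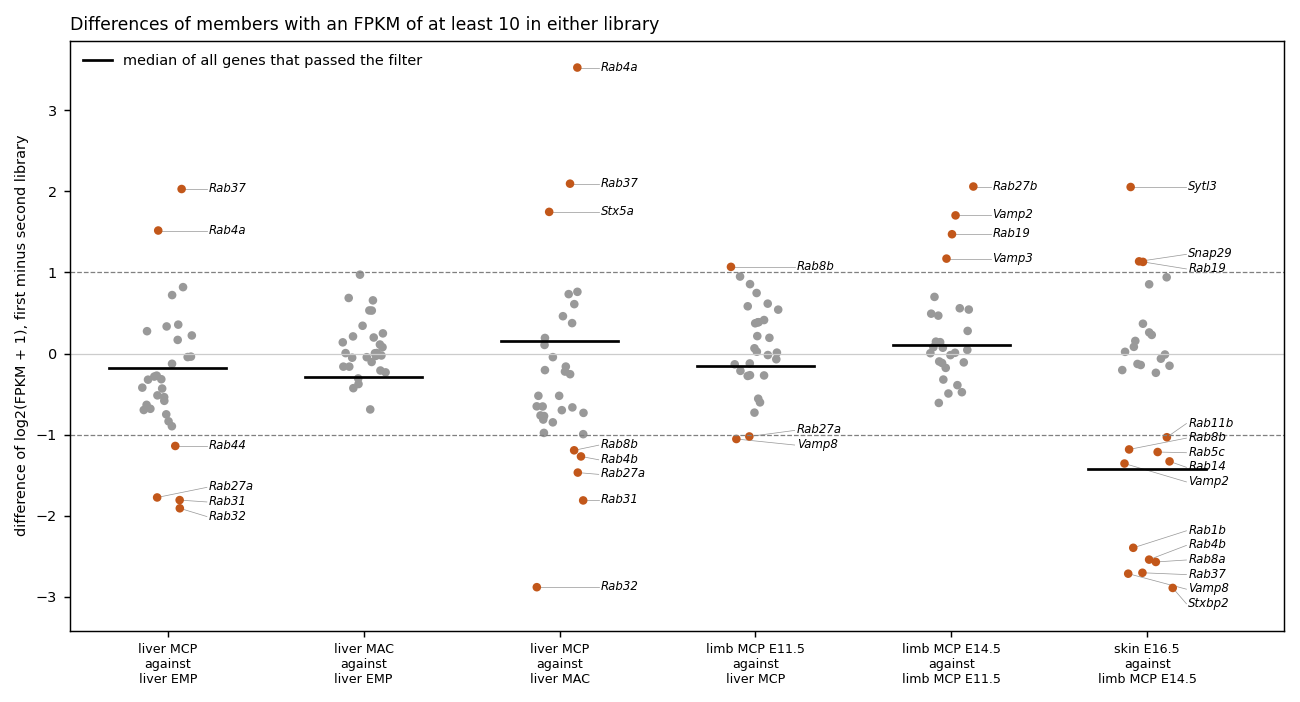
Difference of log2(FPKM + 1) (vertical) for members reaching 10 FPKM in one of the libraries compared (points), in 6 comparisons (horizontal), with members called at 2-fold in orange and named, and the median over all genes that passed the filter as a bar. In the skin comparison the bar lies at −1.42 while the members' own median is −0.14.

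Liver MCPs against liver EMPs address what marks entry into the mast cell lineage. Rab37 was 5.39-fold and Rab4a 3.22-fold higher in MCPs, Rab32 4.58-fold, Rab31 4.32-fold and Rab27a 3.63-fold lower, and Rab44 2.29-fold lower. Of 31 members that passed, 2 were thus called higher, beside 8.52% of all genes that passed, and 4 lower, beside 15.9%. These shares, 6.45% and 12.9% of the members, lay near or under those of the table, so the set as a whole did not stand out. No SNARE was called. At 4-fold Rab37 alone was called higher, beside 1.78% of all genes, and none lower, beside 3.09%. Rab32 and Rab31, more than 4-fold lower by plain FPKM ratio, differed by −1.91 and −1.81 on the log2(FPKM + 1) scale. These differences fell short of the 2 that a 4-fold call needs. When scaled, the call of Rab37 at 4-fold was lost. At 2-fold the same 6 genes were called, beside 8.76% higher and 14.3% lower over all genes. Neutrophil markers summed to 10480 FPKM in EMPs and 1057 in liver MCPs, and erythroid markers to 66.0 and 340, and their part in these differences was not tested. The median difference was −0.32 over members and −0.18 over all genes that passed.

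The macrophage-labelled library against EMPs gave no call in either direction among 28 members, beside 5.85% of all genes called higher and 10.5% lower. With 1 library per group there is no unadjusted p to set beside these counts. Rab32 came closest at 2.03-fold higher by FPKM (0.97 on the log2 scale) and was the 1 higher call under size factor scaling, beside 8.62% of all genes, with none lower, beside 4.5%. At 4-fold none was called, beside 2.39% and 0.661%. Rab3d, at 9.46 against 1.82 FPKM, and Rab4a, at 0.53 against 5.16, differed by more but were below the expression filter. The median difference was 0.00 over members and −0.29 over all genes that passed, which became 0.30 and 0.01 when scaled.

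Liver MCPs against the macrophage-labelled library, the pair of fates by label at E11.5, had the largest contrast of the whole set. Rab4a read 16.6 against 0.53 FPKM, a 31.4-fold difference, Rab37 was 5.75-fold and Stx5a 4.35-fold higher in MCPs. Rab32 was 9.28-fold, Rab31 4.34-fold, Rab27a 2.92-fold, Rab4b 2.69-fold and Rab8b 2.41-fold lower. The 3 higher and 5 lower of 33 members compare with 17.9% and 15.7% over all genes. At 4-fold Rab4a and Rab37 were called higher and Rab32 lower, beside 3.72% and 5.99%, and when scaled Rab37 lost this call. When scaled, the same 3 (9.09% of the members) were higher, beside 373 of 3254 genes, and 11 were lower, beside 20.3% of all genes, with Rab44, Rab43, Stx12, Snap29, Rab5b and Stxbp5 added. Granulocyte markers, high in the macrophage-labelled library, move with these differences, and their part was not tested. This comparison, the one of liver MCPs with EMPs and the one of limb with liver MCPs share the liver MCP library, and both with EMPs share that library.

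MCPs of the limb were set against those of the liver of the same day, E11.5. Rab8b was 2.20-fold higher in the limb, and Rab27a and Vamp8 were 2.23-fold and 2.11-fold lower. These were 1 and 2 calls among 29 members, beside 8% and 14.1% of all genes. Neither of the lower calls held when scaled or with a pseudocount of 5, and Rab8b was not called with that pseudocount. Erythroid markers summed to 340 FPKM in the liver library and 51.7 in the limb, and neutrophil markers to 1057 and 490, and their part was not tested. Rab27b (7.80 against 1.88 FPKM) and Rab19 (3.09 against 0.76) had larger ratios but did not reach 10 FPKM. Few of the abundant members thus differed by 2-fold or more between these libraries. At 4-fold there was no call, beside 1.18% of all genes higher and 2.04% lower. When scaled, Rab8b and Rab4b were the 2 higher calls and none was lower, beside 9.41% and 10.7% of all genes.

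Limb MCPs at E14.5 against those at E11.5 had 4 of 27 members called higher (14.8%), beside 8.42% of all genes, and none lower, beside 6.23%. Rab27b was 4.57-fold, Vamp2 4.04-fold, Rab19 3.35-fold and Vamp3 2.37-fold higher at E14.5. These 4 were called under size factor scaling too, beside 7.61% higher and 6.43% lower over all genes. With a pseudocount of 5, Rab27b and Vamp2 were called and Rab19 and Vamp3 were not. At 4-fold Rab27b alone was called higher, beside 2.39% of all genes, and none lower, beside 1.75%, and this call was lost when scaled. Below the filter, Sytl2 (3.64 against 0.63 FPKM), Stx3 (5.0 against 1.26), Sytl3 (2.11 against 0.31) and Rab13 (3.19 against 0.83) were also higher, and Vamp5 (0.92 against 4.30) and Rab11fip1 (1.99 against 5.64) lower. Connective tissue markers read 67.9 FPKM in sum in the later of these libraries and 1.01 in the earlier, and their part in these differences was not tested.

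The last pair, skin at E16.5 against the limb at E14.5, differs in tissue and in age. Sytl3 was 5.64-fold, Rab19 2.30-fold and Snap29 2.25-fold higher in skin. Stxbp2 was 9.33-fold, Vamp8 9.33-fold, Rab37 10.6-fold, Rab4b 10.5-fold, Rab8a 7.82-fold and Rab1b 6.62-fold lower. A further 5 (Vamp2, Rab14, Rab5c, Rab8b and Rab11b) were 2.15-fold to 2.95-fold lower as deposited. None of these 5 was called when scaled, and there Rab5c (35.6 against 31.1), Rab8b (19.8 against 17.4) and Rab11b (22.1 against 17.3) read higher in skin. The 3 higher calls were 10.3% of the 29 members, beside 5.65% of all genes, and the 11 lower ones 37.9%, beside 62.7%. At 4-fold Sytl3 was called higher, beside 1.78%, and the 6 named first lower, beside 33.4%. All 6 lost this call when scaled, where 5 members (Sytl3, Snap29, Rab19, Rab32 and Snap23) were 4-fold higher, beside 8.48% of all genes. The median of all genes that passed was −1.42 and that of members −0.14. After scaling, the all-gene median was −0.09 and that of members 1.28. There 18 members were called higher, beside 22.3% of all genes, and 6 lower, beside 26.8%. Stxbp2, Vamp8, Rab37, Rab4b, Rab8a and Rab1b were called lower at 2-fold, and Sytl3, Rab19 and Snap29 higher, both as deposited and scaled. For Rab27b (39.9 against 35.7 FPKM, or 90.1 against 29.3 scaled), Rab7, Snap23 and Rab4a, whether skin was called higher depended on the scaling.

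Other genes of the pathway were given by 10 lists of 164 genes, of which 159 that are not members were in the table. At 2-fold, 2 of 39 that passed (5.13%) were higher and 6 (15.4%) lower in liver MCPs than in EMPs, beside 8.52% and 15.9% of all genes. In the macrophage-labelled library 4 of 37 (10.8%) were higher and 3 (8.11%) lower than in EMPs, beside 5.85% and 10.5%. In liver MCPs 4 of 40 (10%) were higher and 11 (27.5%) lower than in that library, beside 17.9% and 15.7%. Between limb and liver MCPs 6 of 37 (16.2%) were higher and 5 (13.5%) lower in the limb, beside 8% and 14.1%. Later on, 9 of 39 (23.1%) were higher and 3 (7.69%) lower in the limb at E14.5 than at E11.5, beside 8.42% and 6.23%. In skin 6 of 38 (15.8%) were higher and 10 (26.3%) lower than in the older limb, beside 5.65% and 62.7%. When scaled, the skin counts were 18 higher and 3 lower, beside 22.3% and 26.8%. Of the 9 higher ones in the older limb, 6 were granule cargo, of 10 cargo genes that passed, among them Tpsb2, a tryptase (605 against 0.21 FPKM), and Cpa3, carboxypeptidase (1856 against 417). Gzmb, a granzyme of the same list, was lower (12.3 against 56.4). Mlph, melanophilin, which links Rab27 to myosin, read 0.02, 0.10, 0.09, 0.13, 3.44 and 11.3 FPKM, and was called higher in skin. Its levels were highest in the 2 libraries with the most Rab27b. The myosin genes of the same list, Myo5a, Myo5b and Myo5c, did not exceed 0.21 FPKM in any library. Myo5a was listed at 0 outside EMPs, and whether this is a failed estimate was not tested. Eea1, an effector of Rab5 on early endosomes, was also called higher in skin (11.7 against 3.15 FPKM). Nsf, the ATPase that takes SNARE complexes apart, stayed between 12.8 and 26.5 FPKM. Ykt6, an R-SNARE of the Golgi, was lower in skin (0.57 against 10.4 as deposited, 1.29 against 8.56 scaled). Orai1, a calcium channel of the plasma membrane that feeds degranulation, was highest in EMPs. It read 17.6, 11.7, 1.75, 0.64 and 0.35 FPKM and was listed at 0 in skin. Its relative Orai2 read 1.39, 3.82, 9.10, 4.11, 2.55 and 2.72 FPKM. Orai2 thus lay above Orai1 in all 4 mast cell lineage libraries and below it in EMPs and the macrophage-labelled library. Mlph, Eea1, Nsf, Orai2 and the Myo5 genes were named after their values were seen.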

How the data were processed

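RNA of 6 sorted populations, 1 library each, was sequenced on an Illumina HiSeq, per the labels' protocols. The authors deposited 1 table of FPKM values with 2 decimals. The submitters' processing notes name Bowtie2, RSEM and the build GRCm38 (mm10). Tool versions and the annotation were not given in the sources used here. Of 17913 rows, 4 with a repeated name were dropped. The table gives no totals, so these were estimated by a method chosen after the values were seen. Over 1409 genes with a single transcript of 600 to 2500 bases, the total was sought at which implied fragments came closest to whole numbers, and 73% to 78.1% of usable values then lay within 0.2 of one (40% if evenly spread). Calls and totals were tested on simulated data.

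Calls needed a difference of log2(FPKM + 1) of at least 1 and 10 FPKM or more in one of the 2 libraries. Size factors were medians of ratios over 8774 genes above 0 in all libraries, and the filter stayed on deposited values. Alternatives were a pseudocount of 5, no filter, equal sums (TPM) and size factors. Named were textbook mast cell exocytosis genes, the 5 largest called differences in each direction, the 3 highest genes of each of 14 roles and the ordered genes. Of the other genes of the pathway those called at 4-fold could be named. Genes outside this rule, such as Rab5b, Rab1b, Rab13, Vamp4, Vamp5 and Stx1a, were named after their values were seen. Of 128 members 127 were found in GENCODE M21. The members and lists were chosen with earlier results of these data known. Python 3.11.15, pandas 2.3.3 and NumPy 2.4.6 were used. The values of 1 member are not reported here, and it is left out of the heat map.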

Additional observations from a re-analysis of the deposited data

How the results depend on the processing

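No paired analysis was possible because each group held 1 library. Leaving out a replicate was not possible either. The counts that follow are members called at 2-fold, higher and lower. Without the expression filter, liver MCPs against EMPs gave 7 higher, the macrophage-labelled library against EMPs 2 higher and 5 lower, liver MCPs against the macrophage-labelled library 12 higher and 9 lower, limb against liver MCPs 5 higher and 6 lower, the older against the younger limb 12 higher and 4 lower, and skin against the older limb 24 lower. With a pseudocount of 5 there were 3 lower in liver MCPs than in macrophage-labelled cells, and limb against liver MCPs gave 0 higher and 0 lower, the older limb 2 higher and skin 7 lower. Without the filter and with this pseudocount, shares over all genes were not counted. These counts therefore do not show whether the members differed from the table as a whole. With equal sums (TPM), the macrophage-labelled library gave 1 higher than EMPs, limb against liver MCPs 3 higher and 1 lower, and skin 8 higher and 6 lower (beside 13.6% and 42.6% of all genes), and 8 members were ordered upward and 5 downward along the lineage. With size factors the corresponding counts were 1 higher, then 11 lower for the pair of liver MCPs and macrophage-labelled cells, 2 higher and 0 lower for limb against liver, 18 higher and 6 lower for skin, and 8 ordered upward.

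Chosen after seeing the data were size factors computed without skin, which gave the same counts of 1, 11, 2 and 0 outside the skin comparison, and size factors over genes of 1 FPKM or more in all libraries, which gave 1, 9, 2 and 0, and 14 higher and 6 lower in skin. Shares over all genes were not counted with these size factors. Without the skin library 1 member (0.781%) was ordered downward, beside 0.776% of all genes. At 4-fold, size factors over all libraries left Rab4a higher and Rab32 lower in liver MCPs than in macrophage-labelled cells, beside 2.52% and 7.01% of all genes. In skin they left 5 members higher, beside 8.48%. Apart from these scalings, the cause of the differences was not tested. Depth limits values below 0.123 to 0.174 FPKM on a 2 kb transcript.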
